A study of Mus musculus with 8 samples.

Results

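The core spiral of mitochondrial beta-oxidation is the set of enzymes that shortens a fatty acyl-CoA inside the mitochondrion, round after round. Its genes were described here in hearts of db/db mice set against hearts of db/m mice. The members were chosen by name, as the acyl-CoA dehydrogenases of each chain length and the hydratases, hydroxyacyl-CoA dehydrogenases and thiolases that follow them. They are Acadvl, Acadl, Acadm, Acads, Acad9, Hadha, Hadhb, Hadh, Echs1 and Acaa2, which makes 10 of the 55573 genes in the deposited count table, and all 10 passed the filter on low counts.

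Heart RNA was sequenced in 8 libraries, 4 from db/db and 4 from db/m mice. The db/db mice are homozygous for a mutation of the leptin receptor gene and become obese and diabetic, and the db/m mice carry a single mutant copy and serve as lean controls. Animals of both genotypes were males of the C57BLKS/J strain at 24 weeks of age, and the labels name no treatment. The mutation is present in every tissue of the db/db mouse, so a difference in the heart is not assigned here to the heart itself. The labels do not say that each library came from its own animal, nor which piece of the heart was taken. The p-values therefore measure the spread between these libraries, which may be technical in part.

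Heart muscle takes much of its energy from fatty acids. In each round an acyl-CoA dehydrogenase removes hydrogen from the chain, a hydratase adds water, a hydroxyacyl-CoA dehydrogenase removes hydrogen again, and a thiolase cuts off acetyl-CoA. Different enzymes do these steps for long, medium and short chains. The trifunctional protein, built of the Hadha and Hadhb subunits at the inner membrane, does the last 3 steps for long chains, and the soluble enzymes Echs1, Hadh and Acaa2 do them for shorter chains. Many of these genes are known targets of the nuclear receptor PPAR-alpha, which senses fatty acids.

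Levels are given as CPM, counts scaled to a common library size with TMM factors (trimmed mean of M values, set on the bulk of the genes). Total counts were 19541757 to 22249911 per library. The libraries of the db/m group were not alike. Markers of adipocytes (9 of 10 listed genes) and of atrial heart muscle (6 of 6) had more counts in db/m 1 and db/m 3 than in any of the other 6 libraries, as did 7 of 7 fibroblast genes. So did 4 of 6 genes of smooth muscle and pericytes and 1 of 6 endothelial genes. The lists of cardiomyocytes (0 of 10), leukocytes (0 of 6) and erythroid cells (0 of 5) held no such gene. These are raw counts, and the share of all genes with this pattern is not given here. The summed level of the adipocyte list was 314 to 629 CPM in db/db libraries, against 723, 339, 1214 and 343 CPM in db/m libraries 1 to 4, with Ucp1 and Retn at 0 counts in all db/db libraries. The summed atrial list was 23.2 to 115 CPM in db/db, against 1715, 15.6, 4302 and 91.5 CPM in db/m libraries 1 to 4, with Sln at 0 in all db/db libraries. The largest part of the atrial sum in db/m 3 was Bmp10 (74283 counts, against 2334 in db/m 1). Mybphl was also higher in db/m 3, while Sln, Myl4, Myl7 and Nppa had more counts in db/m 1. The cardiomyocyte list summed to 33026 to 39690 CPM in db/db and 34932 to 40977 CPM in db/m, but its genes were split in db/m 3. That library had the lowest count of all 8 libraries for 6 of the 10 genes (Myl2, Myl3, Tnnt2, Tnni3, Actc1 and Pln) and the highest for 3 (Myh6, Ryr2 and Ttn). For the members as counted, their ratios and the list medians, values are therefore given with and without db/m 1 and 3, and the part that those other cell types have in the results was not tested. In bulk tissue, fewer cells of a type and less RNA per cell cannot be told apart.

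Of the 10 members, 8 were higher in every db/db library than in every db/m library (Acadvl, Acadl, Acadm, Acads, Hadha, Hadhb, Hadh and Acaa2), a pattern shown in that direction by 5.04% of all genes tested. All 10 members had a positive log2 fold change, as did 47.7% of all 17411 genes, and the median of the members was 0.82, against -0.02 for all genes. None passed the threshold of 0.05 on the adjusted p of the edgeR quasi-likelihood test with Benjamini-Hochberg adjustment over all genes (0 of 10, where 0.00574% of all genes passed in either direction). The same 8 members had an unadjusted p under 0.05, against 5.12% of all genes in that direction. DESeq2 called 4 members higher (Acadl, Hadha, Acadvl and Acaa2, where 1.07% of genes were called higher) and limma-voom, with a quality weight for each library, called 1, Acaa2 (0.310% of genes). Without db/m 1 and 3 the median was 0.50, against 0.00 for all genes. In that fit the same 8 members had an unadjusted p under 0.05 (5.63% of all genes, higher) and edgeR called 0 after adjustment (0.150% of genes).

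**Figure D1:**
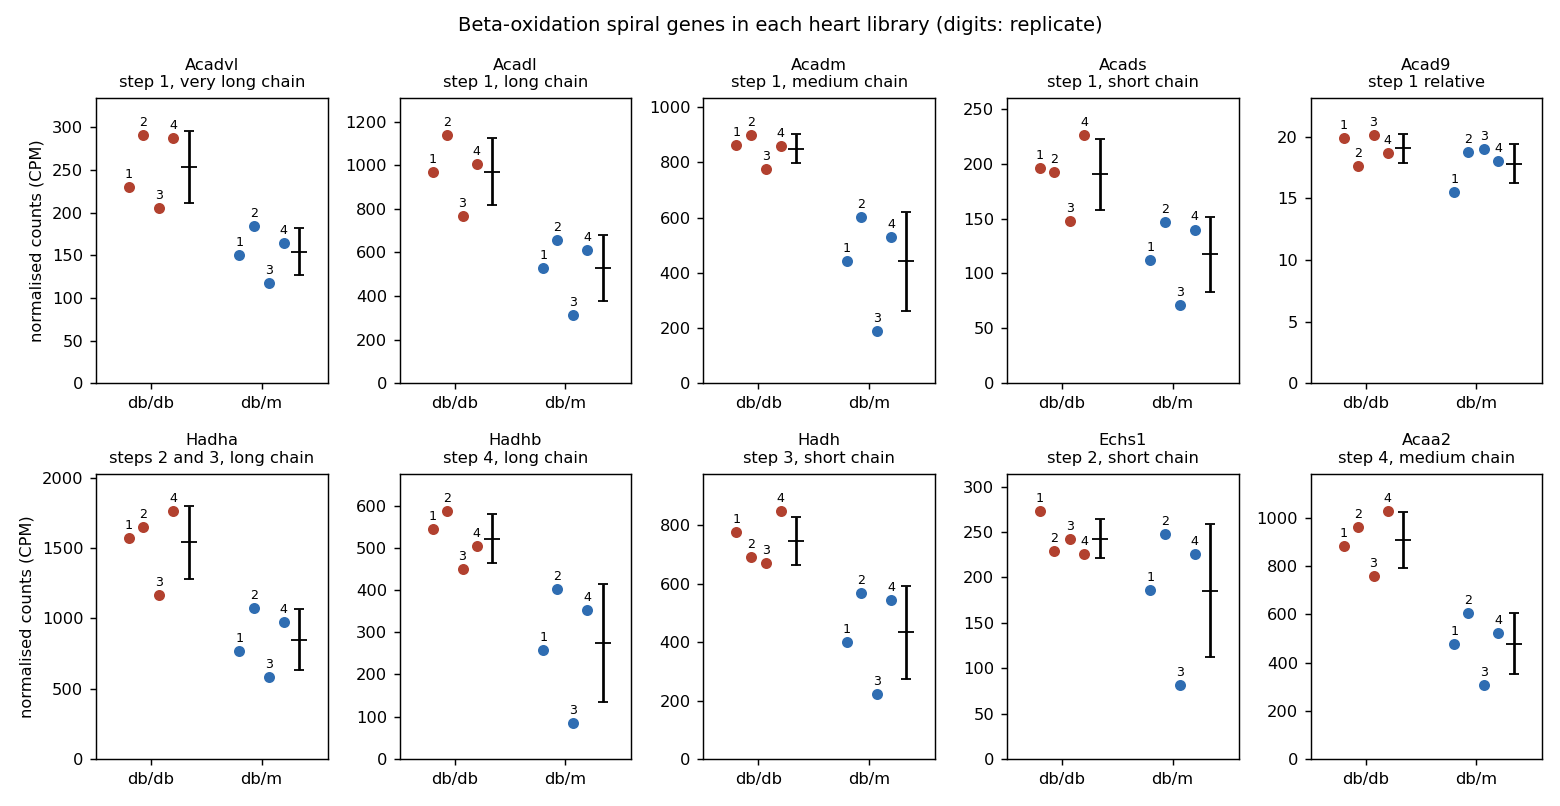
Normalised counts (CPM, linear axis from 0) of the 10 genes in each library, db/db left and db/m right, with the replicate number above each point and the mean with its SD as a black bar; the panel titles give the reaction and chain length. In 8 genes the 4 db/db points lie above the 4 db/m points, Acad9 and Echs1 overlap, and db/m 3 is the lowest point in every gene except Acad9.

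The dehydrogenases of the first step were followed from long to short chains. Acadvl, the very long chain acyl-CoA dehydrogenase bound to the inner membrane, had 230.4, 291, 205 and 288 CPM in db/db libraries 1 to 4, against 151, 184, 118 and 165 CPM in db/m libraries 1 to 4. All db/db libraries lay above all db/m libraries, and the fold was 1.64 (log2 fold change 0.72, SE 0.17; edgeR, Benjamini-Hochberg adjusted p = 0.206; 0.53 on the log2 scale without db/m 1 and 3). Acadvl (ENSMUSG00000018574, chr11:70010183-70015411, minus strand, mm10) shares 1151 of its 2686 exon bases with Dvl2 on the opposite strand. Since the use of strand in counting is not given in the sources used here, its level is uncertain, although Dvl2 itself held 1333 counts in all libraries against 33835 for Acadvl.

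Acadl, the long chain acyl-CoA dehydrogenase (ENSMUSG00000026003, chr1:66830839-66863277, minus strand), had 967, 1138, 768 and 1006 CPM in db/db libraries 1 to 4, against 527, 659, 314 and 609.6 CPM in db/m libraries 1 to 4. Its groups did not overlap, and db/db 3 was the lowest of the db/db libraries, as it was for 8 of the 10 members. The mean was 969.6 ± 153 CPM in db/db and 527 ± 152 CPM in db/m (SD, n = 4 each), 1.84-fold higher (log2 fold change 0.88, SE 0.23; edgeR, Benjamini-Hochberg adjusted p = 0.238; 0.61 on the log2 scale without db/m 1 and 3).

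Acadm, the medium chain acyl-CoA dehydrogenase (ENSMUSG00000062908, chr3:153922357-153944632, minus strand), had 863, 899, 775 and 860.1 CPM in db/db libraries 1 to 4, against 444, 603, 189 and 529 CPM in db/m libraries 1 to 4. The db/db values were close together and the db/m values spread widely, with db/m 3 far below the rest. Acadm had the highest log2 fold change of the 10 members in the fit of all libraries (log2 fold change 0.94, SE 0.30; edgeR, Benjamini-Hochberg adjusted p = 0.296). That rank rests on db/m 3, since the log2 fold change was 0.70 without db/m 3 (adjusted p = 0.0329 by the same edgeR test) and 0.58 without db/m 1 and 3, below the 0.68 of Acaa2.

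Acads, the short chain acyl-CoA dehydrogenase that acts on butyryl-CoA (ENSMUSG00000029545, chr5:115110299-115119346, minus strand), had 196, 192, 148 and 226 CPM in db/db libraries 1 to 4, against 112, 147, 71.3 and 140.0 CPM in db/m libraries 1 to 4. Its groups were separated by the narrow gap between db/db 3 and db/m 2. The log2 fold change was 0.70 (SE 0.23; edgeR, Benjamini-Hochberg adjusted p = 0.297) and 0.40 without db/m 1 and 3.

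Acad9, the relative of Acadvl that is known mainly as an assembly factor of respiratory complex I (ENSMUSG00000027710, chr3:36065979-36092853, plus strand), stood apart from the other dehydrogenases. It had 19.9, 17.6, 20.1 and 18.7 CPM in db/db libraries 1 to 4, against 15.5, 18.8, 19.0 and 18.0 CPM in db/m libraries 1 to 4. The groups overlapped and the values of all libraries were close (log2 fold change 0.10, SE 0.13; 95% confidence interval -0.19 to 0.38; edgeR, Benjamini-Hochberg adjusted p = 0.724; 0.05 on the log2 scale without db/m 1 and 3). In db/m 3, where every other member was at its lowest, Acad9 was at the highest value of its db/m group. Of its counts, an unknown part may be shared with Gm12039, a 180-base processed pseudogene of 97.22% identity with 821 counts against 3105 for Acad9. A further copy, Gm21926, held 1077 counts at 84.44% identity and was found only with a wider match added after the data had been seen. The log2 fold change of Acad9 was 0.17 (SE 0.11) with copies at 95% identity or more added, and 0.22 (SE 0.13) with a correction for gene length.

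For long chains the last steps are done by the trifunctional protein. Hadha, its alpha subunit with the hydratase and hydroxyacyl-CoA dehydrogenase activities (ENSMUSG00000025745), had 1574, 1651, 1167 and 1763 CPM in db/db libraries 1 to 4, against 766, 1069.8, 583 and 972 CPM in db/m libraries 1 to 4. Hadha had the most counts of the 10 members, and all db/db libraries lay above all db/m libraries by 1.81-fold on average (log2 fold change 0.86, SE 0.22; edgeR, Benjamini-Hochberg adjusted p = 0.219; 0.59 on the log2 scale without db/m 1 and 3).

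Hadhb, its beta subunit with the thiolase activity (ENSMUSG00000059447), had 546, 588, 449 and 505 CPM in db/db libraries 1 to 4, against 258, 402, 85.0 and 352 CPM in db/m libraries 1 to 4. The groups did not overlap, and db/m 3, at 85.0 CPM, was far below the other db/m libraries. The log2 fold change had the widest error of the 10 members (log2 fold change 0.93, SE 0.38; edgeR, Benjamini-Hochberg adjusted p = 0.355) and was 0.46 without db/m 1 and 3. Its unadjusted edgeR p of 0.0337 moved past 0.05 when db/m 1 or db/db 1, 2 or 4 was left out.

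A near-identical copy of the Hadhb coding sequence held more counts than Hadhb itself. Gm13910 (ENSMUSG00000063684, chr2:108948806-108950233, plus strand, mm10) is a processed pseudogene, a copy of the spliced mRNA set back into the genome without introns. Its 1428 bases match the whole coding region of Hadhb (bases 120 to 1547 of the 2048-base principal transcript, across 14 exon junctions) with 3 differences. The 3 differences are printed here because they are the only bases of the copy by which a read within the coding region could be assigned to either locus. Each pair gives 81 bases, 5′ to 3′ on the mRNA strand, with the differing base in capitals, and positions, in the GENCODE M21 transcript, count from the first base of the Hadhb transcript (Hadhb base first, Gm13910 base last).
Hadhb, G320A: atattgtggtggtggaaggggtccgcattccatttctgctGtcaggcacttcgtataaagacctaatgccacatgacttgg
Gm13910, G320A: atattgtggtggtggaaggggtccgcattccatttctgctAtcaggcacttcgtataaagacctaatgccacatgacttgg
Hadhb, A512G: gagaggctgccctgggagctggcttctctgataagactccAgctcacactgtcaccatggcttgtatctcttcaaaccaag
Gm13910, A512G: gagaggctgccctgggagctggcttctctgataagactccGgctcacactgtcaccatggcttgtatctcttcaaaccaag
Hadhb, G862A: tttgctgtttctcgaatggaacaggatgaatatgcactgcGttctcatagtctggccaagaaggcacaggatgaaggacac
Gm13910, G862A: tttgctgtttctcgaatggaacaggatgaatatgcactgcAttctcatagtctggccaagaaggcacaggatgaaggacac

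Gm13910 held 443717 counts over the 8 libraries, against 65412 for Hadhb, and a further copy, Gm9108, held 200. Gm13910 had 3376, 3341, 2854 and 3557 CPM in db/db libraries 1 to 4, against 1947, 2768, 1273 and 2364 CPM in db/m libraries 1 to 4. Together the copies took 86.1%, 85.1%, 86.4% and 87.6% of the counts of Hadhb and its copies in db/db libraries 1 to 4, against 88.3%, 87.3%, 93.7% and 87.0% in db/m libraries 1 to 4. The share was highest in db/m 3, the library with the fewest Hadhb counts. Of all 100-base windows of the copy, 77.4% are identical to Hadhb, and the share is 89.1% at 50 bases and 64.8% at 150 bases. How reads that match both loci were assigned is not given in the sources used here, so the levels of Hadhb and of Gm13910 are uncertain on their own.

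With the copies added, Hadhb had 3924, 3971, 3316 and 4072 CPM in db/db libraries 1 to 4, against 2209, 3183, 1328 and 2720.1 CPM in db/m libraries 1 to 4. In this setting the matched copies of all genes, not only of Hadhb, were added to their genes. TMM factors and the adjustment were then set anew on 15944 genes, so these CPM are not plain sums of those above. The groups still did not overlap, and the log2 fold change was 0.70 (SE 0.25; edgeR, Benjamini-Hochberg adjusted p = 0.307), against 0.93 for Hadhb alone. Gm13910 by itself had a log2 fold change of 0.65 (SE 0.23; edgeR, Benjamini-Hochberg adjusted p = 0.320).

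**Figure D2:**
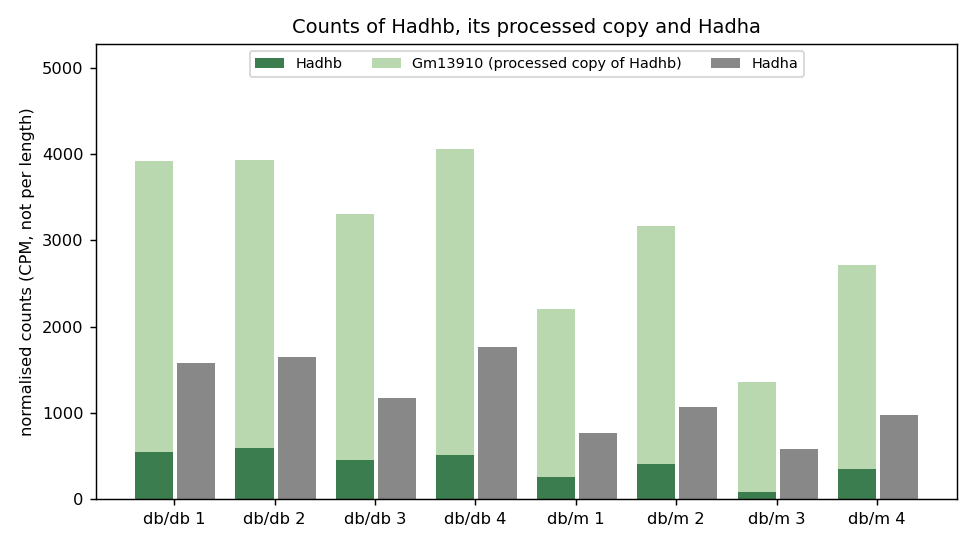
Stacked bars give the CPM of Hadhb (dark green) and of its processed copy Gm13910 (light green) in each library, beside the CPM of Hadha (grey), on a linear axis from 0 and not divided by transcript length. Gm13910 is the larger share of each stacked bar, and the smallest dark green bar is that of db/m 3, at 85.0 CPM.

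For shorter chains the last steps are done by separate enzymes. Echs1, the short chain enoyl-CoA hydratase that also serves valine breakdown (ENSMUSG00000025465, chr7:140105710-140116476, minus strand), had 273, 229, 242 and 226 CPM in db/db libraries 1 to 4, against 186, 247, 81.8 and 226 CPM in db/m libraries 1 to 4. The groups overlapped, and db/m 3 was far below the other db/m libraries. The log2 fold change of 0.39 (SE 0.28; edgeR, Benjamini-Hochberg adjusted p = 0.539) was 0.15 without db/m 3 and 0.03 without db/m 1 and 3.

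Hadh, the soluble hydroxyacyl-CoA dehydrogenase of medium and short chains (ENSMUSG00000027984, chr3:131233419-131272101, minus strand), had 776, 690.0, 669 and 849 CPM in db/db libraries 1 to 4, against 399, 568, 224 and 544 CPM in db/m libraries 1 to 4. All db/db libraries lay above all db/m libraries (log2 fold change 0.78, SE 0.26; edgeR, Benjamini-Hochberg adjusted p = 0.301; 0.42 on the log2 scale without db/m 1 and 3).

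Acaa2, the soluble thiolase that ends each round for shorter chains (ENSMUSG00000036880, chr18:74779197-74806208, plus strand), had 882, 962, 759.6 and 1029 CPM in db/db libraries 1 to 4, against 478, 606, 305 and 521 CPM in db/m libraries 1 to 4. It had the smallest p of the members, with 1.90-fold more counts in db/db (log2 fold change 0.93, SE 0.21; edgeR, Benjamini-Hochberg adjusted p = 0.174). Leaving out db/m 3 alone brought Acaa2 past the adjusted threshold (0.77 on the log2 scale; edgeR, Benjamini-Hochberg adjusted p = 0.0301). In that fit 2 members passed, Acaa2 and Acadm, where 0.363% of all genes were called higher, and the same 8 members had an unadjusted p under 0.05, against 6.84% of all genes.

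**Figure D3:**
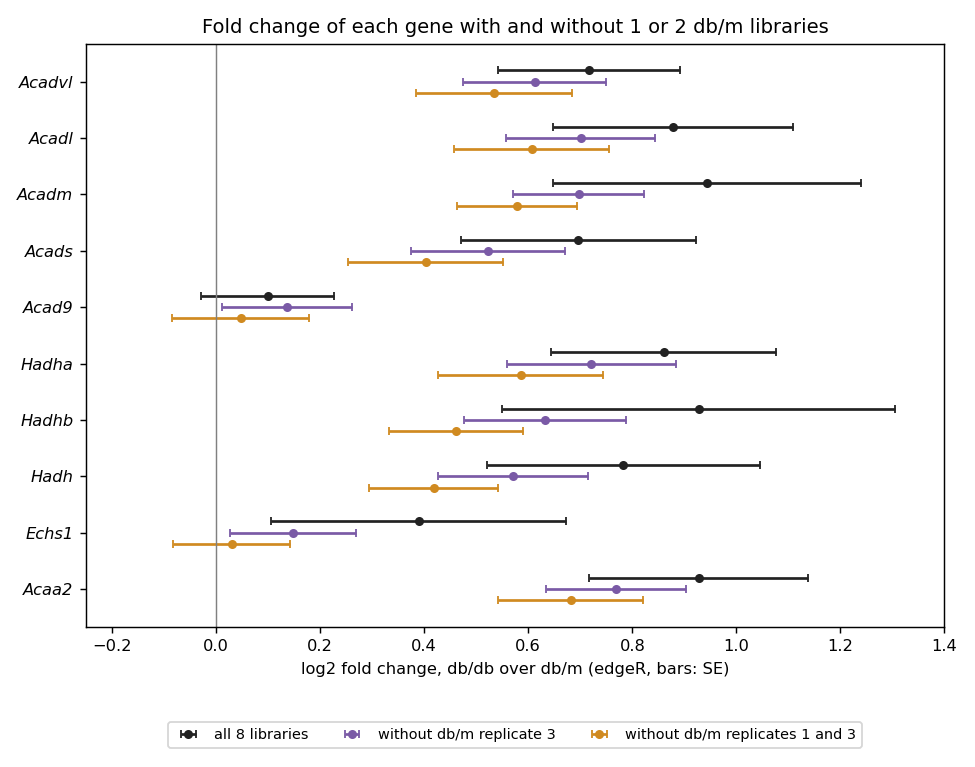
Log2 fold change of db/db over db/m for each gene (points) with its SE (bars) in the edgeR fit of all 8 libraries (black), without db/m 3 (purple) and without db/m 1 and 3 (orange). All values are above 0, all but that of Acad9 become smaller as the db/m libraries are left out in turn, and Echs1 comes to 0.03.

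Levels of different genes were compared as CPM per kilobase of the principal transcript. Acaa2 was highest (599 ± 76.5 in db/db, 315 ± 83.6 in db/m; SD, n = 4 each), followed by Acadl (506 in db/db, 275 in db/m), Hadh (417 in db/db, 242 in db/m), Acadm (415 in db/db, 216 in db/m) and Hadha (383 in db/db, 211 in db/m). Neighbours in this order among these 5 genes overlapped in both genotypes. Below them stood Hadhb (255 in db/db, 134 in db/m), Echs1 (156 in db/db, 119 in db/m), Acadvl (117 in db/db, 71.2 in db/m) and Acads (102 in db/db, 62.8 in db/m). In db/db, Hadha and Hadhb, Hadhb and Echs1, and Echs1 and Acadvl did not overlap, while in db/m each of these neighbours did. Acad9 was lowest by far, at 4.86 ± 0.300 in db/db and 4.53 ± 0.404 in db/m (SD, n = 4 each), without overlap with Acads in either genotype.

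The copies change that order. With their counts added, Hadhb had 1866 ± 167 CPM per kilobase in db/db and 1152 ± 388 in db/m (SD, n = 4 each), which gave it rank 1 in place of rank 6. The length used matters too, because the annotated exons of Echs1 merged over all transcripts are 5.32 times as long as its principal transcript, and those of Hadhb are 3.22 times as long. By merged exons Echs1 had 29.3 CPM per kilobase in db/db and 22.4 in db/m, rank 9 of the 10 genes in place of rank 7.

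The 10 members together took 0.590%, 0.650%, 0.508% and 0.649% of all counts in db/db libraries 1 to 4, against 0.350%, 0.439%, 0.220% and 0.415% in db/m libraries 1 to 4. The groups did not overlap, and db/db 3 was the lowest of its group as db/m 3 was of the other. The members were then compared by their course over the libraries. The root mean square difference of centred log2 CPM (each gene minus its own mean over the 8 libraries) was smallest for Acadl with Acaa2 (0.091) and Hadha with Acaa2 (0.098), and largest for Acad9 with Hadhb (0.841).

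**Figure D4:**
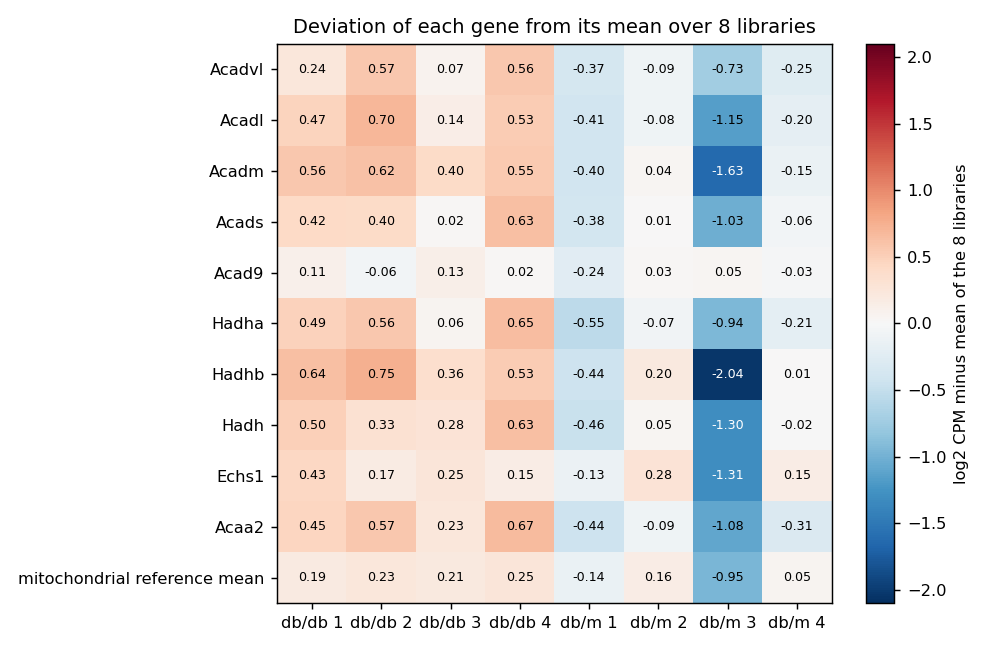
Each cell gives a gene's log2 CPM in a library minus its mean over the 8 libraries (red above, blue below), with db/db libraries left and db/m libraries right. The last row is the mean of 20 mitochondrial reference genes. The column of db/m 3 is the deepest blue for every row except Acad9, down to -2.04 for Hadhb, while the row of Acad9 stays between -0.24 and 0.13.

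Steps and chain lengths were then set against each other inside each library, as the log2 CPM of a member minus that of another, in 10 ratios, each with a two-sided exact permutation test over the 8 libraries. None passed Benjamini-Hochberg adjustment over the 10 ratios (0 of 10, with 2 at an unadjusted p under 0.05), and the smallest p that 4 libraries against 4 allow is 0.0286. An adjusted p under 0.05 would need most of the 10 ratios at that smallest p, so the adjusted test could hardly pass any. The ratio of Acad9 to Acadvl was -3.53, -4.04, -3.34 and -3.94 in db/db libraries 1 to 4, against -3.27, -3.29, -2.63 and -3.19 in db/m libraries 1 to 4. Every db/db value lay below every db/m value, with a difference of -0.62 (exact permutation p = 0.0286, adjusted p = 0.143) and of -0.47 without db/m 1 and 3. The ratio of Echs1 to Hadh, the hydratase against the dehydrogenase of the next step for short chains, was -1.50, -1.59, -1.47 and -1.91 in db/db libraries 1 to 4, against -1.10, -1.20, -1.45 and -1.27 in db/m libraries 1 to 4. Again the groups did not overlap, with a difference of -0.36 (exact permutation p = 0.0286, adjusted p = 0.143) and of -0.38 without db/m 1 and 3. The ratio of Echs1 to Hadha, the hydratases of short and long chains, differed by -0.38 (exact permutation p = 0.171, adjusted p = 0.429) and by -0.54 without db/m 1 and 3.

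Among the dehydrogenases of the first step the groups overlapped in each of the 4 ratios of chain lengths. Acads to Acadm, short over medium chain, differed by -0.33 between db/db and db/m (exact permutation p = 0.0857, adjusted p = 0.286; -0.19 without db/m 1 and 3). Acadvl to Acadm differed by -0.35 (exact permutation p = 0.229, adjusted p = 0.457; -0.06 without db/m 1 and 3). Acadl to Acadm and Acadvl to Acads differed by -0.15 and -0.01, and by 0.01 and 0.13 without db/m 1 and 3, where both signs turned (exact permutation p = 0.457 and 0.971, adjusted p = 0.762 and 0.971). With an SE of 0.13 to 0.26 per difference, these 4 ratios leave room for unequal changes of that size.

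Of the later steps, Hadh to Hadha differed by -0.02 (exact permutation p = 0.943, adjusted p = 0.971; -0.16 without db/m 1 and 3), soluble against membrane-bound dehydrogenase. The ratio of the trifunctional subunits, Hadha to Hadhb, averaged 1.55 ± 0.18 in db/db and 1.80 ± 0.65 in db/m (log2, SD, n = 4 each; exact permutation p = 0.657, adjusted p = 0.939). With the copies added to Hadhb it averaged -1.32 in db/db and -1.45 in db/m, and the difference was 0.13 instead of -0.26 (exact permutation p = 0.314, adjusted p = 0.449). Acaa2 to Hadhb, the thiolases of shorter and long chains, differed by -0.17 (exact permutation p = 0.771, adjusted p = 0.964) and by 0.21 with the copies added (exact permutation p = 0.0286, adjusted p = 0.0952). Both differences with Hadhb thus changed sign with the counting of the copy, and without db/m 1 and 3 they were 0.11 for Hadha to Hadhb and 0.22 for Acaa2 to Hadhb as counted. No direction is given for them.

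**Figure D5:**
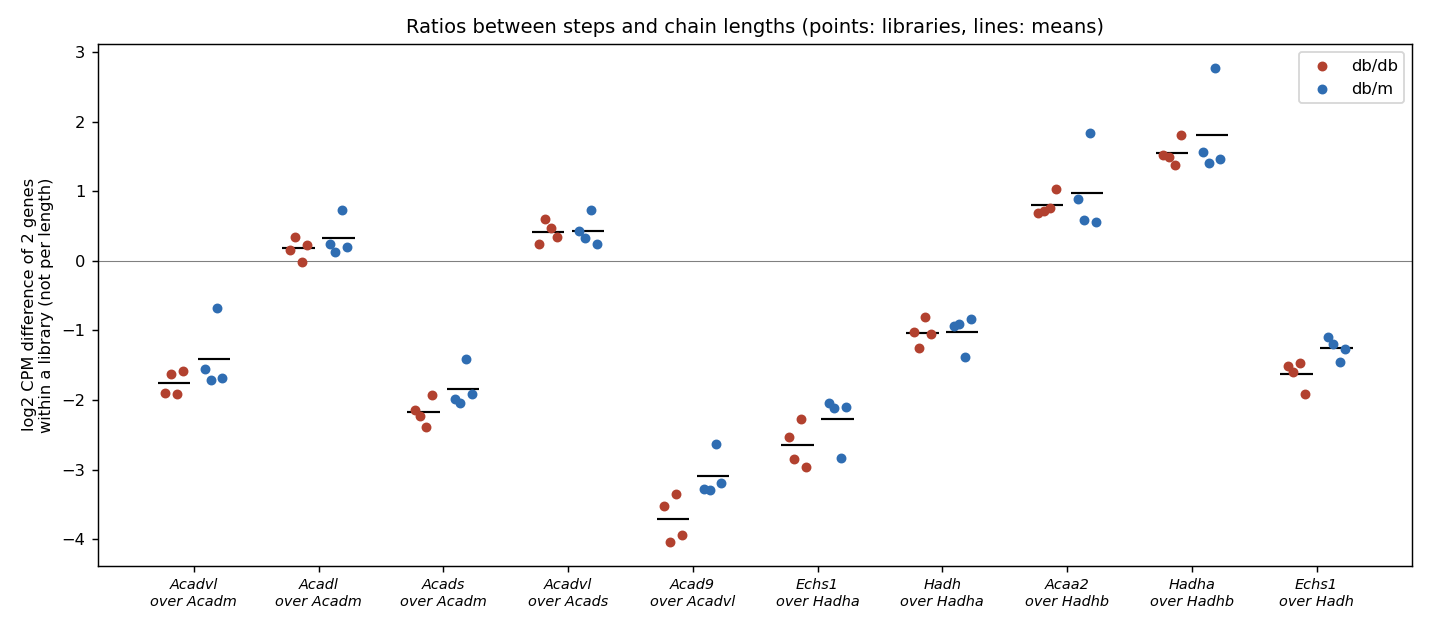
For each of the 10 ratios, the points give the log2 CPM of the first gene minus that of the second in each library (db/db red and left, db/m blue and right) and the black lines the group means; values are not per length, so their height is not a ratio of transcript numbers. The groups do not overlap in Acad9 over Acadvl and Echs1 over Hadh, and the single blue point that lies away from the others in several ratios is db/m 3.

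Hadha and Hadhb lie head to head on chromosome 5 (Hadha at chr5:30118304-30155162, minus strand, Hadhb at chr5:30155248-30184593, plus strand, mm10). The RefSeq start sites are 273 bases apart on GRCm38.p6, the same assembly as mm10, so both genes start from a single stretch of DNA. Of the 10 members, 8 were found in the RefSeq promoter table, which holds 250 bases before to 50 bases after each start. The hexamer AGGTCA was searched on both strands. It is only a part of the longer elements bound by nuclear receptors such as PPAR-alpha and the estrogen-related receptors. The hexamer was found in 3 of the 8 windows (Acadvl, Acadm and Echs1), against 16.3% of all 32851 promoters in the table. These 3 windows are shown with AGGTCA (or its reverse complement TGACCT) in capitals because they hold it, and the Hadhb window is shown with GGGCGG in capitals because most of it is shared with Hadha. All give the 250 bases before the start site, 5′ to 3′ on the strand of the gene.
Acadvl (GRCm38.p6, chr11:70015429-70015678, minus strand): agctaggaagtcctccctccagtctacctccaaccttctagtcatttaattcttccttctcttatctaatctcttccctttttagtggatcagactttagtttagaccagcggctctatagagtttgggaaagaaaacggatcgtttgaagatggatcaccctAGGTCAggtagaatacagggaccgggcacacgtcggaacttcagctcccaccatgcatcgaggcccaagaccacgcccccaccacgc
Acadm (GRCm38.p6, chr3:153944644-153944893, minus strand): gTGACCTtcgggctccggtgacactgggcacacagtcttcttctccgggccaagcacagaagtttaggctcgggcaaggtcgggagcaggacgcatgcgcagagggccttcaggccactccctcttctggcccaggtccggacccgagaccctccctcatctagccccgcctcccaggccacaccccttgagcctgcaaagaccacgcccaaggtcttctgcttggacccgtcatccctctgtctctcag
Echs1 (GRCm38.p6, chr7:140116422-140116671, minus strand): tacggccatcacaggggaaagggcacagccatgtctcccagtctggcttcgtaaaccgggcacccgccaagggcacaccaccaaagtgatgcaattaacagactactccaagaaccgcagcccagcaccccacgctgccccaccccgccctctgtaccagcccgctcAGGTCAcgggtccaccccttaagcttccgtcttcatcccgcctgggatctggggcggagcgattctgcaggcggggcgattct
Hadhb (GRCm38.p6, chr5:30155003-30155252, plus strand): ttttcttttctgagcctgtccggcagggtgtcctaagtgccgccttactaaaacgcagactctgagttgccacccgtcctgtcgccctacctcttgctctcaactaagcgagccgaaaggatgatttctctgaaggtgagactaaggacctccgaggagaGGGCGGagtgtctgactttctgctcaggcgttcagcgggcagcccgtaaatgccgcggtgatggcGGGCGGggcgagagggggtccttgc

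The hexamer began 87 bases before the start of Acadvl, 249 before that of Acadm and 83 before that of Echs1. Acadvl and Acadm were among the 8 members whose groups did not overlap, and Echs1 was not, while Acadl, Acads, Hadha, Hadhb and Hadh had no AGGTCA in the window. Longer elements of such receptors that contain the hexamer were in 0 of the 8 windows, on either strand. Those searched were TNAAGGTCA (1.28% of promoters) and AGGTCA repeated in the same direction after a spacer of 1 base (0.0396%). GGGCGG, the core of the GC box bound by Sp factors, was in 6 of 8 (35.7% of promoters). The windows of Hadha and Hadhb share 228 bases, and the only match of Hadha is also a match of Hadhb, so these 6 are not independent. Such a match describes letters in a short window and not a bound site.

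Enzymes that feed the spiral were counted from a list of 9 genes, and 7 of them had an unadjusted edgeR p under 0.05, higher in db/db (5.12% of all genes), with 0 past the adjusted threshold. DESeq2 called 3 of them higher (Cpt1b, Mlycd and Slc25a20; 1.07% of all genes) and limma-voom 1 (Slc25a20; 0.310% of all genes), which edgeR also called without db/m 3. The median log2 fold change was 0.49, and 0.36 without db/m 1 and 3. Slc25a20, the carnitine-acylcarnitine carrier of the inner membrane, averaged 264 ± 42.3 CPM in db/db and 128 ± 36.2 CPM in db/m (SD, n = 4 each; log2 fold change 1.04, SE 0.22, and 0.76 without db/m 1 and 3). Cpt2, which turns acylcarnitine back into acyl-CoA inside the mitochondrion, averaged 437 ± 91.2 CPM in db/db and 279 ± 75.9 CPM in db/m (SD, n = 4 each; log2 fold change 0.64, SE 0.23, and 0.36 without db/m 1 and 3). Mlycd, which removes the inhibitor malonyl-CoA, had a log2 fold change of 0.78 (0.50 without db/m 1 and 3). Cpt1b and Cpt1a, the muscle and liver forms of the entry enzyme, had 1.07 and 0.45 (0.82 and 0.55 without db/m 1 and 3). The counts of Cpt1b were low, at 4.44 ± 1.06 CPM in db/db and 2.12 ± 0.62 CPM in db/m. Cpt1a had 99.7 ± 19.4 CPM in db/db and 72.8 ± 16.7 CPM in db/m (SD, n = 4 each). Why Cpt1b was so low was not tested, and its fold change is uncertain. Acsl1, which activates fatty acids, had 0.49, and Crat, the carnitine acetyltransferase, 0.44 (0.31 and 0.22 without db/m 1 and 3). At the other end, Acacb, which makes malonyl-CoA at the mitochondrion, and the carnitine transporter Slc22a5 had values of 0.10 (SE 0.18) and -0.0012 (SE 0.15), and of 0.12 and -0.06 without db/m 1 and 3.

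Auxiliary enzymes for unsaturated chains and the proteins that pass electrons on to the respiratory chain formed a list of 11 genes. All 11 were positive (47.7% of all genes), 9 had an unadjusted edgeR p under 0.05 (5.12% of all genes, higher) and 0 passed the adjusted threshold, with a median log2 fold change of 0.71 (0.43 without db/m 1 and 3). DESeq2 called 4 higher (Acot2, Decr1, Ech1 and Eci2; 1.07% of all genes) and limma-voom 0 (0.310%). Decr1, the dienoyl-CoA reductase, averaged 509 ± 94.2 CPM in db/db and 256 ± 78.7 CPM in db/m (SD, n = 4 each; log2 fold change 0.99, SE 0.24, and 0.68 without db/m 1 and 3), and Ech1, a dienoyl-CoA isomerase, averaged 975 ± 209.8 CPM in db/db and 460.0 ± 182 CPM in db/m (SD, n = 4 each; log2 fold change 1.08, SE 0.30, and 0.73 without db/m 1 and 3). Eci2, an enoyl-CoA isomerase, had a log2 fold change of 0.70 (SE 0.17; 0.51 without db/m 1 and 3). Acot2, a mitochondrial thioesterase that splits acyl-CoA, was the highest of the list at 1.63 (SE 0.32; 1.54 without db/m 1 and 3).

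Peroxisomes run a shorter version of the spiral with their own enzymes. Of 8 listed genes 7 were measured, all 7 positive (47.7% of all genes), with 2 at an unadjusted edgeR p under 0.05 (5.12% of all genes, higher), 0 past the adjusted threshold and a median log2 fold change of 0.32 (0.23 without db/m 1 and 3). DESeq2 called 2 higher (1.07% of all genes) and limma-voom 0 (0.310%). Hsd17b4, the peroxisomal bifunctional enzyme and one of those DESeq2 called, averaged 63.6 ± 8.59 CPM in db/db and 44.4 ± 3.02 CPM in db/m (SD, n = 4 each; log2 fold change 0.52, SE 0.13, and 0.44 without db/m 1 and 3). Acox3 and Ehhadh, an acyl-CoA oxidase and a further bifunctional enzyme, had log2 fold changes of 0.25 (SE 0.12) and 0.35 (SE 0.16), and of 0.27 and 0.23 without db/m 1 and 3. The thiolases Acaa1a and Acaa1b had 0.30 and 0.18 (0.20 and 0.21 without db/m 1 and 3).

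Acad9 was also set beside its partners in the assembly of complex I. Of 5 measured genes (Ecsit, Ndufaf1, Tmem126b, Timmdc1 and Tmem186) 0 had an unadjusted edgeR p under 0.05 (5.12% of all genes higher, 7.84% lower). The adjusted threshold was passed by 0 (0.00574% of all genes in either direction). DESeq2 and limma-voom called 0 (1.07% and 0.310% of all genes, higher). With so few genes, these counts of 0 are near those shares. The log2 fold changes ran from -0.06 to 0.21, with a median of 0.09. Without db/m 1 and 3 the median was -0.12 and 1 of 5 was positive (9059 of all 17971 genes in that fit). The values ran from -0.23 to 0.01, so no direction is given for them. Their SE of 0.14 to 0.19 leaves room for differences of that size.

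Genes of other mitochondrial functions were used as a reference of 20 members (citrate cycle, respiratory chain, import and others), a comparison chosen after the data had been seen. Its mean log2 CPM was 8.66, 8.70, 8.67 and 8.72 in db/db libraries 1 to 4, against 8.32, 8.62, 7.51 and 8.52 in db/m libraries 1 to 4. All 20 had a positive log2 fold change (47.7% of all genes). Without db/m 1 and 3, 17 of 20 were positive, as were 9059 of all 17971 genes in that fit. An unadjusted edgeR p under 0.05 was reached by 1 of them (5.12% of all genes, higher). The adjusted threshold was passed by 0, and DESeq2 and limma-voom called 0 (1.07% and 0.310% of all genes, higher). The median was 0.39, and 0.14 without db/m 1 and 3. Copies hold more counts than the genes themselves for 3 of the 20, Tomm20 and Hspd1 among them.

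Relative to this reference, the mean log2 level of the 10 members was 0.007, -0.005, -0.245 and 0.009 in db/db libraries 1 to 4, against -0.472, -0.361, -0.395 and -0.392 in db/m libraries 1 to 4. In this mean the db/m libraries came close together, db/m 3 included, and all lay below the db/db libraries. Single members differed in this respect. Acadl was close in all db/m libraries (0.72 to 0.78). For Acad9, db/m 3 stayed apart (-3.26, against -4.39 to -4.34 in the other db/m libraries), as for Hadhb (-1.10, against -0.31 to 0.03). The median difference over the members was 0.43. Acadl (0.48), Acadm (0.63), Hadhb (0.69), Hadh (0.42) and Acaa2 (0.52) were higher in every db/db library than in every db/m library on this scale, as were 0.534% of all genes. Each of these 5 had an exact permutation p of 0.0286, the smallest possible, and an adjusted p of 0.154 by Benjamini-Hochberg over all genes. With that floor an adjusted p under 0.05 would need most of all genes at the smallest p. That 0 of 10 passed is therefore not read as a result. Without db/m 1 and 3 their differences were 0.48 for Acadl, 0.47 for Acadm, 0.35 for Hadhb, 0.30 for Hadh and 0.57 for Acaa2. Hadha differed by 0.44 (exact permutation p = 0.0571, adjusted p = 0.204), Acadvl by 0.28 and Acads by 0.29 (exact permutation p = 0.171 and 0.114, adjusted p = 0.343 and 0.276), and without db/m 1 and 3 by 0.46, 0.41 and 0.28. Echs1 differed by 0.06 and Acad9 by -0.34 (exact permutation p = 0.714 and 0.286, adjusted p = 0.810 and 0.457). The sign for Acad9 is opposite to that of its log2 fold change, and without db/m 1 and 3 its difference was -0.06 and that of Echs1 -0.08.

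Known targets of PPAR-alpha outside the spiral formed a further list. Of 11 measured genes 10 were positive (47.7% of all genes), 9 had an unadjusted edgeR p under 0.05 (5.12% of all genes, higher), 0 passed the adjusted threshold and the median log2 fold change was 1.14 (0.65 without db/m 1 and 3). DESeq2 called 3 higher, Acot1 and Mlycd among them (1.07% of all genes), and limma-voom 1 (0.310%). Acot1, a cytosolic thioesterase, averaged 111 ± 51.0 CPM in db/db and 29.8 ± 13.7 CPM in db/m (SD, n = 4 each; log2 fold change 1.89, SE 0.40, and 1.48 without db/m 1 and 3). Angptl4, which blocks lipoprotein lipase, averaged 47.4 ± 40.1 CPM in db/db and 11.5 ± 6.08 CPM in db/m (SD, n = 4 each; log2 fold change 2.04, SE 0.67, and 2.58 without db/m 1 and 3), and its db/db values were widely spread. The genes of the receptors PPAR-alpha and PPAR-delta had negative values. Ppara averaged 40.2 ± 7.92 CPM in db/db and 64.8 ± 34.7 CPM in db/m (SD, n = 4 each; log2 fold change -0.69, SE 0.31, and -0.32 without db/m 1 and 3), and Ppard 40.5 ± 2.43 CPM in db/db and 51.7 ± 4.47 CPM in db/m (SD, n = 4 each; log2 fold change -0.35, SE 0.11, and -0.42 without db/m 1 and 3). Esrrb, an estrogen-related receptor, averaged 60.9 ± 8.62 CPM in db/db and 44.6 ± 8.12 CPM in db/m (SD, n = 4 each; log2 fold change 0.45, SE 0.16, and 0.25 without db/m 1 and 3). Of 11 regulators measured, 1 was higher (Esrrb) and 1 lower (Ppard) at an unadjusted edgeR p under 0.05 (5.12% of all genes higher, 7.84% lower), 0 passed the adjusted threshold or were called by DESeq2 or limma-voom, and the median was -0.17 (-0.14 without db/m 1 and 3).

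The genes most like the mean course of the 10 members over the 8 libraries were sought among 12285 non-members of at least 5 CPM, by the root mean square difference of centred log2 CPM. They were Gm5131 (0.059), Gm13910 (0.059), Slc35f5 (0.062), Hsdl2 (0.072) and Etfdh (0.074), where the median of all candidates was 0.551. The members themselves lay 0.0897 (Acads) to 0.497 (Acad9) from that mean course, so no single member was as close to it as these genes. Hsdl2 encodes a hydroxysteroid dehydrogenase-like protein, and Etfdh the oxidoreductase that takes electrons from the acyl-CoA dehydrogenases by way of the electron transfer flavoprotein. Gm5131 and Gm13910 are copies of members. Gm5131 (ENSMUSG00000110715, chr8:97163793-97165030, mm10) is a processed pseudogene that aligned to Acadm at 89.44% identity, below the 95% set for copies, and was found only with a wider match at 80% added after the data had been seen. It held 14283, 16188, 14387 and 14828 counts in db/db libraries 1 to 4, against 9238, 10887, 6298 and 10074 counts in db/m libraries 1 to 4. These were 0.891, 0.845, 0.855 and 0.920 counts per Acadm count in db/db libraries, against 0.914, 0.886, 1.38 and 0.904 in db/m libraries, nearly equal except in db/m 3. None of its 1139 windows of 100 bases and 82 of its 1189 windows of 50 bases (6.90%) are identical to Acadm, so Gm5131 differs from Acadm far more than Gm13910 does from Hadhb. Whether its reads came from Acadm was not tested. With its counts added, the log2 fold change of Acadm was 0.89 (SE 0.25; edgeR, Benjamini-Hochberg adjusted p = 0.259).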

How the data were processed

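The authors deposited raw counts, whole numbers for each Ensembl gene, of 8 heart libraries. Per the file headers they were not pooled, and per the values not normalised. Libraries were made from 3 µg of total RNA with the NEBNext Ultra kit, per the labels' protocols, and the submitters' processing notes name mm10. The sources used here name no aligner, counter or strand setting. Symbols came from GENCODE M21 by identifier. The 8 single-sample files held the same counts as the whole table, 0 columns were left unused and 0 rows named no gene. Depth was 19541757 to 22249911 counts per library, and no 2 libraries of a genotype agreed within sampling noise (chi-square per degree of freedom at least 13.98).

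Groups follow the genotype in the labels. The main test was edgeR 4.0.16 (R 4.3.3) with TMM factors, filterByExpr (minimum count 10, minimum total 15), a robust quasi-likelihood F test of genotype, two-sided, and Benjamini-Hochberg adjustment over 17411 genes at 0.05. It was tested on simulated data. Log2 CPM used a prior count of 2. Ratios within a library used exact permutation (SciPy 1.17.1). Copies were found with BLAST 2.17.0 at 95% identity or more over at least 0.5 of the pseudogene.

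Named genes are the 10 members and their copies, up to 4 genes of each list by p and any gene of lists of at most 9, and the 5 genes most like the members. Values of some of these genes are not reported here. The members, lists, rules and tests were chosen with earlier results of these data known. Alternatives were DESeq2 1.42.0, limma-voom (limma 3.58.1), DESeq2 size factors, other filters (none, or 1 CPM in 4 libraries), a replicate block, a gene length correction, copies added to their gene, a prior count of 0.5, and leaving out each library or db/m 1 and 3. The mitochondrial reference and the wider copy match were added after seeing the data. Promoter windows are those of RefSeq on GRCm38.p6.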

Additional observations from a re-analysis of the deposited data

Results flagged for a closer look

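Of 42 groups of 4 libraries examined, 4 held a library far from the others, and chance flags about 1 in 20 such groups. All 4 were log2 ratios in db/m 3, where the depth was within the range of the other libraries. The summed levels of the adipocyte and atrial markers were highest there. Of the atrial genes, Bmp10 (74283 counts) and Mybphl had their most counts in db/m 3, while Sln, Myl4, Myl7 and Nppa had more in db/m 1. The ratio of Acadvl to Acadm was -0.68 in db/m 3, against -1.71 to -1.56 in the other db/m libraries. The ratio of Acad9 to Acadvl was -2.63, against -3.29 to -3.19. For Echs1 to Hadha the value was -2.83, against -2.11 to -2.04. For Hadha to Hadhb it was 2.78, against 1.41 to 1.57. The cardiomyocyte genes were split in db/m 3 too, with 6 of 10 at their lowest count of all libraries and 3 at their highest. Principal transcripts measure 2168 bases for Acadvl, 2047 for Acadm, 3930 for Acad9, 1557 for Echs1, 4017 for Hadha and 2048 for Hadhb. By merged exons Acadvl is shorter than Acadm (2686 against 3913 bases). The part that other cell types or transcript length have in these values was not tested.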

How the results depend on the processing

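Direction and side of the threshold were kept for the log2 fold changes of the 10 members under DESeq2 size factors, no filter or a stricter one, the gene length correction (median 0.81) and the copies added to their genes (median 0.76). The count of members past the adjusted threshold was 0 by edgeR, 4 by DESeq2, 1 by limma-voom with sample quality weights, and 0 to 2 when each library was left out in turn, the 2 being Acadm and Acaa2 without db/m 3. The count at an unadjusted p under 0.05 was 7 or 8 in every edgeR, DESeq2 and limma-voom fit. Where it was 7, the member outside it besides Acad9 and Echs1 was Hadhb. Relative to the mitochondrial reference genes, Acadvl, Acads and Hadha were also outside it by the exact permutation test. The median log2 fold change was 0.62 to 0.97 over the fits that left out a library, and 0.43 relative to the mitochondrial reference genes, where Acad9 reversed to -0.34. With copies added, the difference of Acaa2 to Hadhb reversed to 0.21 and that of Hadha to Hadhb to 0.13, and leaving out db/m 3 also gave both a positive sign (0.12 and 0.07). The cause of the other changes was not tested.

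Labels give both genotypes the numbers 1 to 4, but nothing says that a number marks a shared litter, batch or day. Deviations of same-numbered libraries correlated at -0.088, 0.056, 0.027 and 0.016, within the range of the other pairs (-0.145 to 0.182). These values cannot tell whether a number marks a shared litter, batch or day. With the replicate block the median log2 fold change of the members was 0.87, 0 passed the adjusted threshold and 8 had an unadjusted p under 0.05. The block moved the calls over all genes to 5 from 1. With 3 libraries in a group, or within pairs, the exact permutation test of a ratio cannot reach 0.05, so those settings were read by value.

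Each member had at least 350 counts in every library. The spread of the db/m libraries and the sharing of reads with copies limit these comparisons. Levels of Hadhb, Acadvl and Acad9 remain uncertain for the shared sequence given above.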

Other observations

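Acyl-CoA dehydrogenases that act outside the spiral had values on both sides of 0. Of 7 measured, 5 were positive (47.7% of all genes) and 2 had an unadjusted edgeR p under 0.05 (5.12% of all genes, higher). The adjusted threshold was passed by 0, and DESeq2 and limma-voom called 0 (1.07% and 0.310% of all genes, higher). The median log2 fold change was 0.26, against -0.01 without db/m 1 and 3. Ivd, the isovaleryl-CoA dehydrogenase of leucine breakdown, averaged 351 ± 63.3 CPM in db/db and 285 ± 85.1 CPM in db/m (SD, n = 4 each; log2 fold change 0.30, SE 0.23, and -0.01 without db/m 1 and 3), and Acadsb, the short branched chain dehydrogenase of isoleucine breakdown, averaged 163 ± 21.7 CPM in db/db and 173 ± 13.2 CPM in db/m (SD, n = 4 each; log2 fold change -0.09, SE 0.13, and -0.07 without db/m 1 and 3). Acad8, of valine breakdown, and Gcdh, the glutaryl-CoA dehydrogenase of lysine breakdown, had log2 fold changes of 0.26 (SE 0.18) and 0.11 (SE 0.21), and of 0.06 and -0.15 without db/m 1 and 3. The 2 genes under an unadjusted p of 0.05 were Acad12 (0.76, SE 0.27; 0.51 without db/m 1 and 3) and Acad11 (0.44, SE 0.17; 0.20 without db/m 1 and 3), and Acad10 had a value of -0.18 (SE 0.19; -0.02 without db/m 1 and 3).

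Fabp3, the fatty acid binding protein of heart muscle, had 17854 counts over the 8 libraries, against 729495 for its near-identical processed copy, so its log2 fold change of 1.14 (SE 0.48) in the PPAR-alpha list is uncertain. It is named after its values were seen.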
